A study of Homo sapiens with 8 samples.

Results

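The genes described here are the core kinases of the mitogen-activated protein kinase (MAPK) cascades, together with the RAS GTPases that start one of them. They were taken from a fixed list of 36 gene symbols, and all 36 were found among the 58828 genes in the count tables. The list holds 3 ERK and atypical MAPK genes, 3 JNK genes, 4 p38 genes, 7 MAP2K genes, 8 MAP3K genes, 4 RAF and RAS genes and 7 kinases that MAPKs activate.

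Each MAPK cascade passes a signal down tiers of kinases. A MAP3K phosphorylates a MAP2K, the MAP2K phosphorylates a MAPK, and the MAPK phosphorylates further kinases and transcription factors. The ERK branch is known for growth factor signals that pass through RAS and RAF, whereas the JNK and p38 branches are known for responses to stress, oxidants included. RNA levels describe the supply of these kinases and carry no information on their phosphorylation.

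RNA-seq had been performed on 22RV1 and DU145 cells, both established human prostate cancer cell lines, to ask how PAGE4 acts under oxidative stress. PAGE4 is a cancer testis antigen. Cells had received by lentivirus either an empty pLVX-TetOne-Puro vector or the same vector with HA-tagged PAGE4, were kept as pools under puromycin, and were all given doxycycline, which switches the construct on. Each of these cultures was then treated for 12 h with PBS or with H2O2, labelled as 200 mM. Thus 8 conditions were sequenced, with 1 library each. No condition had a second library, and each construct in a line is 1 transduced culture. The replication of a comparison is therefore a set of matched pairs of libraries, 4 over both lines or 2 within a line. The tests within a line take their spread from the pairs of both lines, and p-values measure only the spread between those pairs.

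Total counts per library ranged from 25482984 to 43310401. PAGE4 itself had 0 or 1 reads in the 4 vector libraries and between 1001 and 1489 reads in the 4 PAGE4 libraries, so no library went against its label for the construct. The lines also carried their known marks. HOXB13 ranged from 67.9 to 217 CPM (read counts scaled to the normalized library size) in 22RV1 and from 0 to 0.145 CPM in DU145, and VIM ranged from 9.24 to 23 CPM in 22RV1 and from 409 to 508 CPM in DU145. TRPM8 was near 0 in both lines, and CD44 and LGALS1 overlapped between them. Of 5 markers of other cells, COL1A1 reached 26.5 CPM in 22RV1 and 9.2 CPM in DU145, and the other 4 stayed at or under 0.365 CPM.

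To show regulatory sequence beside the counts, the 250 bases upstream of the transcription start were taken from RefSeq (GRCh38.p14), in which 34 of the 36 genes had a promoter entry. MAP3K1 and MAPKAPK2 had no entry. MAP2K3 and MAP2K6 are shown because they encode the MAP2Ks that activate p38 kinases and because H2O2 moved their RNAs in opposite directions. Both lie on the plus strand of chromosome 17, MAP2K3 at chr17:21284461-21284710 and MAP2K6 at chr17:69414447-69414696. Capitals mark matches on either strand to the AP-1 motif TGANTCA, the antioxidant response element core TGACNNNGC or the cAMP response core TGACG.

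MAP2K3: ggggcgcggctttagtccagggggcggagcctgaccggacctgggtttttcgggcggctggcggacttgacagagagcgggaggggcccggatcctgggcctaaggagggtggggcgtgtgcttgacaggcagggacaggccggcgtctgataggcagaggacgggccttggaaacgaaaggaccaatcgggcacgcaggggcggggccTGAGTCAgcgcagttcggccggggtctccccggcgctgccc

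MAP2K6: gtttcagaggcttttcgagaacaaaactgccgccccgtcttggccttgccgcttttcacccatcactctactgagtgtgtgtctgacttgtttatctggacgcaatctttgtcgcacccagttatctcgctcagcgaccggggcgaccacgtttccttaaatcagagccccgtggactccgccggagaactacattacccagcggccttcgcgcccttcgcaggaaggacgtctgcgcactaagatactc

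The MAP2K3 window held 1 AP-1 match, 1 CCAAT box and 3 GC boxes (GGGCGG), and 70.4% of its bases were G or C. In the MAP2K6 window 1 GC box was found, none of the letters of the AP-1, antioxidant response or cAMP response motifs was present, and 55.6% of bases were G or C, beside a median of 58% over 27305 RefSeq promoters. MAP2K3 was the 1 gene among the 34 with an AP-1 match, which 6.6% of all promoters carried. The core TGACG, which is part of the full element TGACGTCA and can overlap the antioxidant response core, was in 12 of the 34 member promoters and in 21.7% of all promoters. The GC box was in 28 of the 34 and in 42.3% of all promoters, CCAAT in 12 of the 34 and in 33%, the antioxidant response core in 2 and in 11%, and the full element TGACGTCA in 1 and in 1.77%. These matches describe letters only.

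Levels of different genes are compared per kilobase of the Ensembl canonical transcript. MAP2K2, which activates ERK kinases, stood first in both lines, with 63.7 ± 3.68 CPM per kilobase (SD, n = 4 libraries) in 22RV1 and 111 ± 14.2 in DU145. HRAS (59.9 ± 3.59), MAPK12 (51.2 ± 8.93), MKNK2 (49.6 ± 20.5) and MAP2K3 (42.2 ± 15.8 CPM per kilobase) came next in 22RV1. In DU145 the next were MKNK2 (65.4 ± 19.7), MAPKAPK2 (39.6 ± 1.22), MAPKAPK3 (39 ± 5.76) and MAP2K3 (34.1 ± 13.5 CPM per kilobase). The 4 libraries of a line differ in treatment and construct, and the ranges of neighbours in these 2 orders overlapped except in DU145. There the lowest value of MAP2K2 (98.9) lay above the highest of MKNK2 (87.3), and the lowest of MKNK2 (46.2) lay above the highest of MAPKAPK2 (41.3 CPM per kilobase). At the other end were MAP3K8, MAP2K6 and MAPK10, each under 1 CPM per kilobase in every library.

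**Figure D1:**
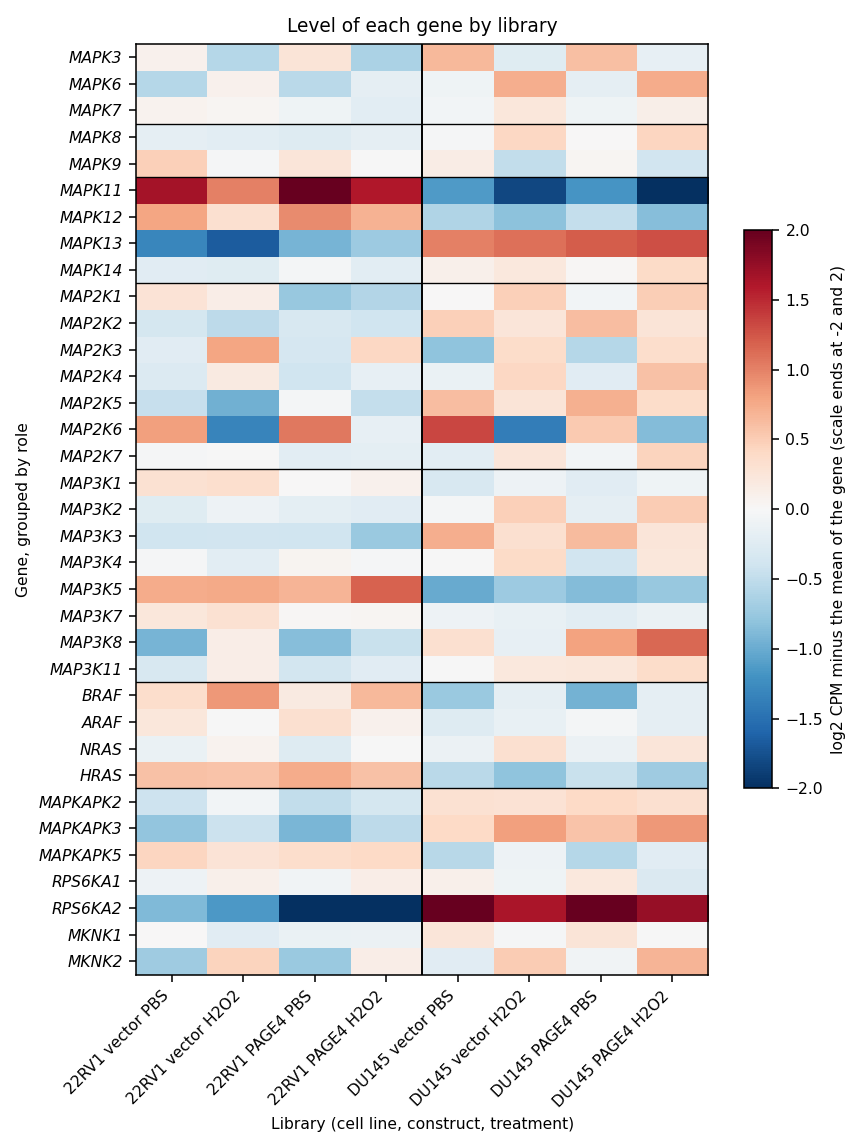
Heat map of the level of each of the 35 tested genes (rows, grouped by role from ERK genes at the top to MAPK-activated kinases at the bottom) in the 8 libraries (columns), as log2 CPM minus the mean of that gene, with colours that saturate at the ends of the scale. MAPK11, MAPK12, MAP3K5 and HRAS are higher in the 4 left-hand 22RV1 columns, RPS6KA2 and MAPK13 in the 4 DU145 columns, and MAP2K6 and MAP2K3 alternate between PBS and H2O2 columns.

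The make-up of several families differed between the lines, while in other families it was alike. MAP2K4 made up 39.6% to 47% of the MAP2K4 and MAP2K7 CPM per kilobase in 22RV1 and 41% to 46.8% in DU145. MKNK2 made up 79.8% to 91.2% of the MKNK1 and MKNK2 CPM per kilobase in 22RV1 and 82.3% to 91.3% in DU145. Among the 4 p38 genes, MAPK12 made up 50.8% to 53.5% of the summed CPM per kilobase in 22RV1 and MAPK11 made up 23.4% to 30.5%, while MAPK13 stayed between 3.4% and 5.2%. In DU145 the shares were spread over MAPK14 (28.9% to 37.4%), MAPK12 (27.3% to 34.8%) and MAPK13 (27.7% to 32.3%), and MAPK11 held between 3% and 6.5%. For the JNK genes, MAPK9 held 60.1% to 67.9% in 22RV1. In DU145 MAPK9 held 60.4% and 57.6% with PBS but 41.8% and 43.5% with H2O2, where MAPK8 was the larger part. MAPK10, known as the neural JNK, was at or under 0.4% in every library. In DU145 NRAS made up 38.8% and 37.1% of the NRAS and HRAS sum with PBS, and 51% and 47.9% with H2O2. In 22RV1 it stayed between 19.1% and 25.2%. These shares are descriptions, and their size depends on the transcript length chosen for each gene.

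**Figure D2:**
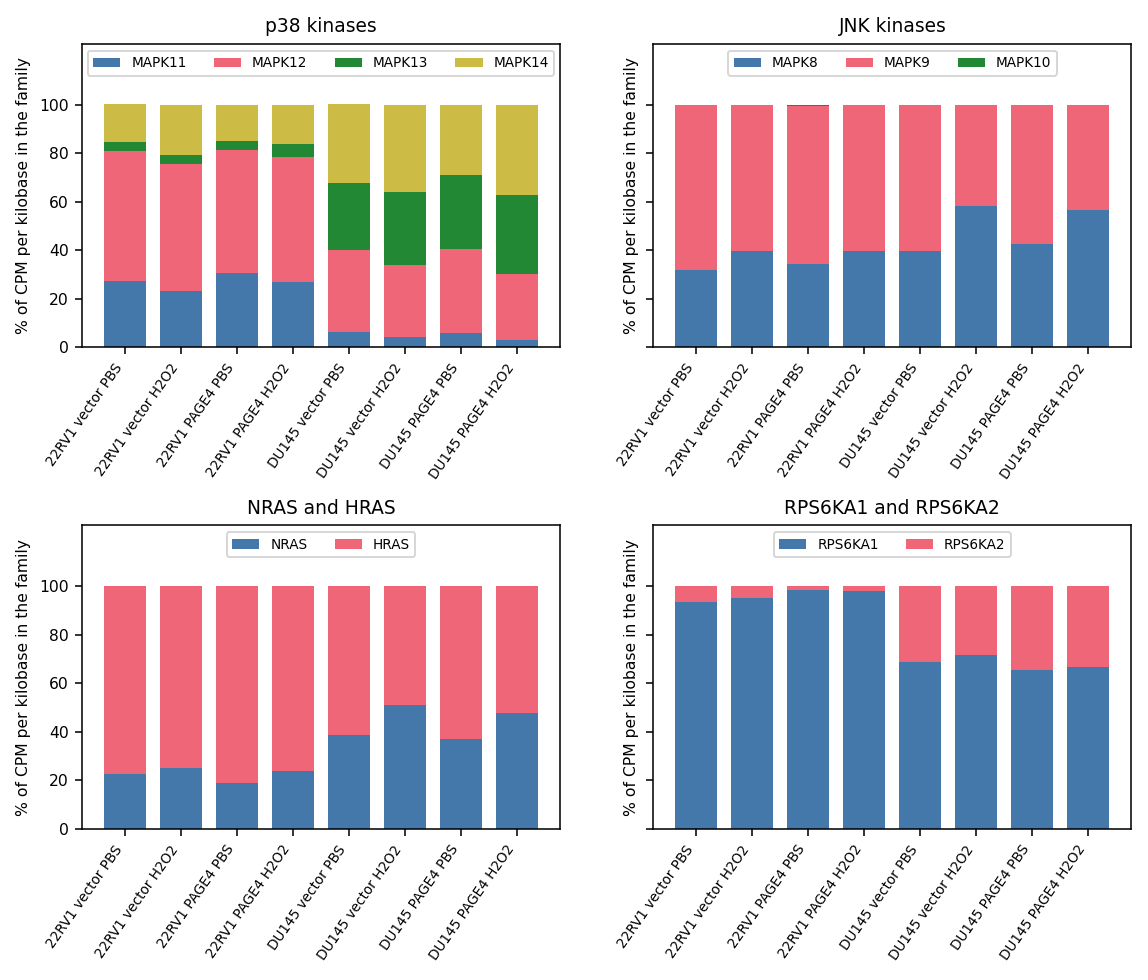
Stacked bars of the share (%) of each gene in the summed CPM per kilobase of its family, for p38 kinases, JNK kinases, NRAS with HRAS, and RPS6KA1 with RPS6KA2, in each of the 8 libraries. MAPK11 and MAPK12 fill most of the p38 bars in 22RV1 and MAPK13 and MAPK14 most of them in DU145, and MAPK8 passes MAPK9 in the DU145 H2O2 libraries only.

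Each gene was next compared between libraries with edgeR's quasi-likelihood test on TMM-normalized counts, fitted over 22418 genes with Benjamini-Hochberg adjustment, and a change was called at an adjusted p under 0.05. All but MAPK10 passed the filter on low counts, so 35 members were tested. Where 4 values of a line are given below, their order is vector with PBS, vector with H2O2, PAGE4 with PBS and PAGE4 with H2O2, and all are CPM of the whole gene, to be compared between libraries and not between genes.

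The first comparison set DU145 against 22RV1 over 4 condition-matched pairs. Of the 35 members, 25 were called, 14 higher and 11 lower in DU145, beside 60.5% of all genes tested (28.5% higher, 31.9% lower). The median size of the change was 0.42 on the log2 scale for the members and 0.9 for all genes. All 4 p38 genes differed, MAPK13 and MAPK14 being higher and MAPK11 and MAPK12 lower in DU145. In bulk RNA, fewer cells with a transcript and less transcript per cell cannot be told apart.

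MAPK11 (p38 beta) was at 67, 42.5, 88.2 and 63.8 CPM in 22RV1 and at 9.59, 6, 9.27 and 4.59 CPM in DU145. It was 9-fold lower in DU145 (log2 -3.17 ± 0.20 SE, edgeR adjusted p = 5.32e-06). MAPK12 (p38 gamma) had 96, 69.8, 108 and 90.3 CPM in 22RV1 against 36.7, 31.6, 40 and 31.1 CPM in DU145, a log2 difference of -1.39 ± 0.11 (edgeR adjusted p = 1.88e-05). No library of one line reached the range of the other for either gene. They are neighbours on the minus strand of chromosome 22 (MAPK12 at 50245450 to 50261716 and MAPK11 at 50263713 to 50270767, GENCODE release 44, GRCh38). MAPK12 shares 29.7% of its exon bases with HDAC10 on the same strand, which was listed at 0.243 to 3.39 CPM.

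MAPK13 (p38 delta) went the other way, with 21.6, 16.8, 28 and 32.2 CPM in 22RV1 and 107, 115, 124 and 131 CPM in DU145. The difference was 4.92-fold (log2 2.30 ± 0.14, edgeR adjusted p = 5.3e-06), again without overlap. MAPK14 (p38 alpha), its neighbour on chromosome 6 (36027782 to 36111236, against 36127809 to 36144524 for MAPK13), differed by only 0.35 ± 0.11 on the log2 scale (edgeR adjusted p = 0.0239). Its call was lost in 4 of 9 alternative analyses.

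Above the p38 tier, MAP3K5 (ASK1, a MAP3K known to respond to oxidants) had 26.5, 26.9, 25.4 and 35.7 CPM in 22RV1 and 7.85, 9.56, 8.65 and 9.41 CPM in DU145 (log2 -1.69 ± 0.15, edgeR adjusted p = 2.88e-05). On the RAS and RAF side, HRAS was at 62.3, 61.8, 69.9 and 62.5 CPM in 22RV1 and at 28.7, 23.7, 30.7 and 25.5 CPM in DU145 (log2 -1.26 ± 0.11, edgeR adjusted p = 3.77e-05). BRAF, which activates MAP2K1 and MAP2K2, was at 53.6, 76.4, 47.8 and 66.1 CPM in 22RV1 and at 25, 37, 21.9 and 37 CPM in DU145 (log2 -1.04 ± 0.11, edgeR adjusted p = 7.48e-05). These 3 genes did not overlap between the lines. ARAF was lower as well (log2 -0.32 ± 0.10), a call that held in 5 of 9 alternatives, and NRAS was not called (log2 0.15).

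The member furthest above 22RV1 in DU145 was RPS6KA2, a ribosomal S6 kinase that ERK kinases activate. It had 7.37, 6.1, 1.66 and 2.18 CPM in 22RV1 and 54, 41.8, 67.5 and 45.3 CPM in DU145, a 13.5-fold difference (log2 3.76 ± 0.43, edgeR adjusted p = 0.00014). Within 22RV1 the PAGE4 cultures were below both vector libraries, so the difference from DU145 was larger in the PAGE4 pairs. The p38 substrate kinase MAPKAPK3 had 35.6, 45.6, 32.8 and 42.8 CPM in 22RV1 and 81.6, 109, 91.9 and 113 CPM in DU145 (log2 1.32 ± 0.10, edgeR adjusted p = 1.73e-05). The groups did not overlap for either gene. MAPKAPK2 was also higher (0.64 ± 0.12) and MAPKAPK5 lower (-0.74 ± 0.12) in DU145.

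In the MAP2K tier MAP2K2 (0.79 ± 0.10) and MAP2K5 (0.96 ± 0.14) were higher and MAP2K3 (-0.34 ± 0.11) was lower in DU145. The MAP2K3 call held in 6 of 9 alternatives. Of the 8 MAP3K genes, 3 were higher and 3 lower. Among these, MAP3K3 and MAP3K5 kept their calls in all 9 alternatives, MAP3K11 in 5, and MAP3K1, MAP3K2 and MAP3K7 in 4 each. Over all members, 14 of the 25 calls held each time. Over all 35 members, 18 had no overlap between the lines and 28 differed in the same direction in all 4 pairs. The shares of all genes that did so were not counted, so these numbers do not set the members apart. With total counts in place of TMM the median over all genes moved by -0.20 on the log2 scale, and 19 members were called, 8 higher and 11 lower. The count fell to 16 without the PAGE4 H2O2 pair and to 16 without the vector PBS pair. Shares of all genes called in these fits are not given here, so these counts do not set the members apart.

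**Figure D3:**
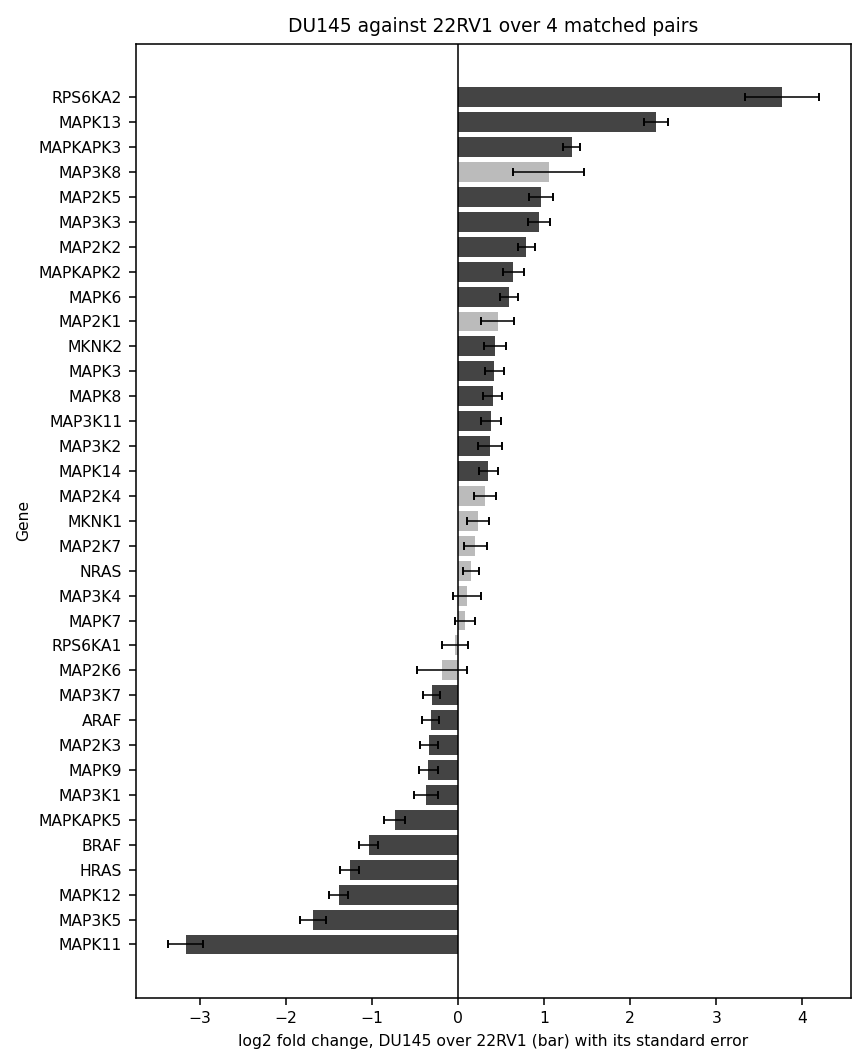
Log2 fold change of DU145 over 22RV1 (bars) with its standard error for the 35 tested genes, over 4 condition-matched pairs, dark where the edgeR adjusted p was under 0.05 and light otherwise. RPS6KA2 (3.76) and MAPK13 (2.30) lie at the upper end and MAPK11 (-3.17) at the lower end.

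The second comparison asked which MAPK genes moved with H2O2. Over the 4 pairs of H2O2 and PBS libraries, 13 of 35 members were called, 7 higher and 6 lower, beside 20.1% of all genes (8.89% higher, 11.2% lower). The median size of the change was 0.26 for the members and 0.38 for all genes on the log2 scale. By role, the ERK and atypical group held 1 called higher and 1 lower, the MAP2K genes 2 and 2, the JNK genes 0 and 1, the p38 genes 0 and 2, the RAF and RAS genes 2 and 0 and the MAPK-activated kinases 2 and 0. With H2O2 6 members had no overlap between treated and PBS libraries, namely MAPK3, MAPK9, MAP2K3, MAP2K6, NRAS and MKNK2. The share of all genes without overlap was not counted, so this number does not set the members apart.

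The p38 branch showed opposite changes in its MAP2Ks. MAP2K6 (chromosome 17, 69414697 to 69553865) fell from 171 to 35 reads in 22RV1 vector cells, from 183 to 57 in 22RV1 PAGE4 cells, from 154 to 21 in DU145 vector cells and from 87 to 30 in DU145 PAGE4 cells. Its levels were 3.9, 0.887, 4.6 and 1.97 CPM in 22RV1 and 5.57, 0.851, 3.19 and 1.22 CPM in DU145. It was 3.56-fold lower with H2O2 (log2 -1.83 ± 0.31, edgeR adjusted p = 0.00703). MAP2K3 (chromosome 17, 21284672 to 21315232) rose in the same pairs, with 69, 140, 64.1 and 108 CPM in 22RV1 and 46.5, 104, 54.7 and 103 CPM in DU145, 1.95-fold (log2 0.96 ± 0.10, edgeR adjusted p = 0.00119). No H2O2 library overlapped a PBS library for either gene. Per kilobase, MAP2K3 made up at least 98% of their sum in every library, so MAP2K6 was the minor transcript of the pair throughout.

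Among the p38 genes themselves MAPK11 fell (log2 -0.68 ± 0.13, edgeR adjusted p = 0.0102), from 67 to 42.5 and from 88.2 to 63.8 CPM in 22RV1 and from 9.59 to 6 and from 9.27 to 4.59 CPM in DU145. The treated libraries lay below the PBS libraries within each line, although the lines' ranges are far apart. MAPK12 fell by 0.32 on the log2 scale (SE 0.09, edgeR adjusted p = 0.0449), a call that was lost in 6 of 9 alternatives. MAPK13 and MAPK14 were not called, with log2 values of 0.01 and 0.08.

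In the ERK group, MAPK3 (ERK1, chromosome 16, 30114105 to 30123506) fell 1.74-fold (log2 -0.80 ± 0.10, edgeR adjusted p = 0.00255). It had 50.9, 32.1, 57.4 and 31 CPM in 22RV1 and 75.4, 40.4, 72.6 and 42.7 CPM in DU145, and the highest treated library lay below the lowest PBS library. MAPK6, the atypical kinase ERK3, rose 1.62-fold (log2 0.70 ± 0.10, edgeR adjusted p = 0.00455), with 90, 141, 91.3 and 118 CPM in 22RV1 and 125, 220, 117 and 223 CPM in DU145. Treated and PBS libraries of MAPK6 did not overlap within a line. MAPK7 (ERK5) was not called, at 24 to 32.5 CPM over all libraries.

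Upstream of ERK, BRAF rose 1.5-fold in the combined test (log2 0.58 ± 0.10, edgeR adjusted p = 0.00687), from 53.6 to 76.4 and from 47.8 to 66.1 CPM in 22RV1 and from 25 to 37 and from 21.9 to 37 CPM in DU145. It rose in all 4 pairs. NRAS rose by 0.32 ± 0.09 (edgeR adjusted p = 0.0347), from a range of 66.9 to 73.6 CPM with PBS to 79.2 to 99.8 CPM with H2O2. ARAF and HRAS were not called, with log2 values of -0.12 and -0.17. NRAS lost its call in 5 of 9 alternatives and BRAF kept it in all 9.

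For the JNK branch, MAPK9 (JNK2) fell by 0.45 on the log2 scale (SE 0.10, edgeR adjusted p = 0.0218), with 76.9, 54.1, 65.6 and 54.8 CPM in 22RV1 and 61.5, 39.4, 56.5 and 42.6 CPM in DU145. MAPK8 (JNK1) had 43.8, 43.2, 41.6 and 44 CPM in 22RV1 and 48.9, 66.3, 50.3 and 66.9 CPM in DU145. It was not called over both lines (log2 0.23 ± 0.11, edgeR adjusted p = 0.162). MAP2K4, which phosphorylates JNK kinases, rose by 0.52 ± 0.11 (edgeR adjusted p = 0.0155), from 40.9 to 56.3 and from 37.7 to 44.2 CPM in 22RV1 and from 45.1 to 66.1 and from 42.4 to 74.5 CPM in DU145. The other JNK activator, MAP2K7, was not called (0.25, edgeR adjusted p = 0.142). MAPK10 had 10, 8, 29 and 0 reads in 22RV1 and 1, 2, 2 and 0 reads in DU145. In 22RV1 PAGE4 cells it was at least 6.84-fold lower with H2O2, a bound taken at 3 reads. That fold rests on the 1 library with 29 reads, and the vector cells had 10 reads with PBS and 8 with H2O2.

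MKNK2, which phosphorylates the translation factor eIF4E, rose 1.85-fold with H2O2 (log2 0.89 ± 0.11, edgeR adjusted p = 0.0023). Its levels were 125, 280, 122 and 224 CPM in 22RV1 and 175, 291, 195 and 330 CPM in DU145, with the treated libraries above all PBS libraries. Its relative MKNK1 ranged from 19.1 to 26.6 CPM and was not called. MAPKAPK3 rose by 0.37 ± 0.09 (edgeR adjusted p = 0.0233) in all 4 pairs. MAP2K5, which activates MAPK7, fell by 0.40 on the log2 scale (SE 0.11, edgeR adjusted p = 0.0384), with 14, 9.88, 18.7 and 13.8 CPM in 22RV1 and 29.4, 22.9, 31.5 and 24.8 CPM in DU145. None of the 8 MAP3K genes was called by the combined edgeR test.

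Across the 9 alternatives, 7 of the 13 calls held each time, for MAPK3, MAPK6, MAPK11, MAP2K3, MAP2K6, BRAF and MKNK2. With total counts in place of TMM, 12 members were called, 9 higher and 3 lower, and the share of called genes that were higher was 61% in place of 44.3% over all genes. Without the 22RV1 vector pair, the DU145 PAGE4 pair or the DU145 vector pair, 7 members were called each time. For these fits the share of all genes called is not given.

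**Figure D4:**
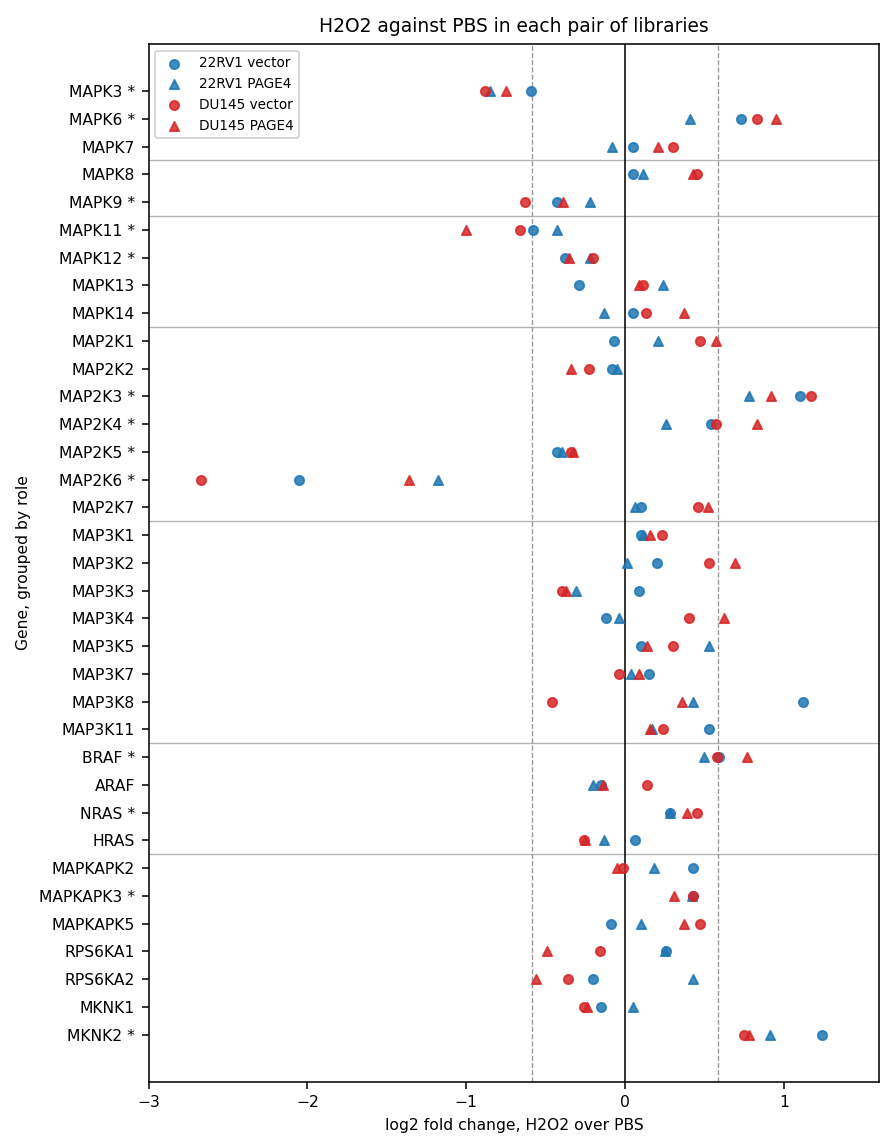
Log2 fold change of H2O2 over PBS, from normalized counts with a pseudocount of 0.5, in each of the 4 pairs of libraries (colour for line, shape for construct) for 35 genes, with dashed lines at 1.5-fold and an asterisk where the combined edgeR adjusted p was under 0.05. MAP2K6 lies left of the dashed line in all 4 pairs, and MAP2K3 and MKNK2 lie right of it in all 4.

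In single pairs, a fold over 1.5 between H2O2 and PBS was passed by 7 members in 22RV1 vector cells, 5 higher and 2 lower, beside 37.4% of genes (17.7% higher, 19.7% lower). In 22RV1 PAGE4 cells 5 passed, 2 higher and 3 lower, beside 30.5% (14.8% higher, 15.7% lower). MAPK10 was 1 of the 3 lower, on 29 reads with PBS and 0 with H2O2. In DU145 vector cells 7 passed, 3 higher and 4 lower, beside 40.3% (19% higher, 21.3% lower), and in DU145 PAGE4 cells 10 passed, 7 higher and 3 lower, beside 41.3% (19.4% higher, 21.9% lower). MAPK3, MAP2K3, MAP2K6 and MKNK2 passed in all 4 pairs. These pairs have no test.

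Taken line by line with 2 pairs each, H2O2 changed 15 members in 22RV1 (9 higher, 6 lower), beside 27.7% of all genes (12.8% higher, 14.9% lower). In DU145 it changed 24 members (13 higher, 11 lower), beside 36.7% of all genes (16.9% higher, 19.8% lower). With total counts the 22RV1 split became 11 higher and 3 lower, and the median of all genes there moved by 0.13 on the log2 scale. Without the 22RV1 vector pair 9 of these 35 members were called in 22RV1, together with MAPK10, which entered that fit on 29 and 0 reads. In DU145 13 members were called without the PAGE4 pair. A line left with 1 pair has no spread of its own, and these fits assume that it varies like the other line. Their shares of all genes called are not given here. All 7 MAP2K genes were called in DU145, with MAP2K1, MAP2K3, MAP2K4 and MAP2K7 higher and MAP2K2, MAP2K5 and MAP2K6 lower. Of these, MAP2K5 kept its call in 3 of 8 alternatives, MAP2K2 and MAP2K7 in 7 each, and the others in all 8. Under every alternative 11 of the 24 calls in DU145 and 8 of the 15 in 22RV1 held.

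The difference between the lines was then tested itself, as the H2O2 change in DU145 minus that in 22RV1. It was called for 5 members, 3 positive and 2 negative, beside 16.3% of all genes (7.54% positive, 8.76% negative). MAP2K1 had 87.7, 79.1, 42.7 and 48.1 CPM in 22RV1 and 73.1, 101, 69.7 and 102 CPM in DU145 (difference 0.42 ± 0.14, edgeR adjusted p = 0.041). MAP3K2, known as an activator of the MAP2K5 branch, had 35.4, 38.7, 36.5 and 35.8 CPM in 22RV1 and 40.4, 57.7, 36.9 and 59 CPM in DU145 (difference 0.47 ± 0.15, edgeR adjusted p = 0.042). For both genes the rise with H2O2 was called in DU145 and not in 22RV1.

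MAP3K4, a MAP3K of the p38 and JNK branches, had 35.1, 30.8, 37.1 and 35.2 CPM in 22RV1 and 35.6, 46.5, 27.5 and 41.7 CPM in DU145 (difference 0.55 ± 0.16, edgeR adjusted p = 0.0231). The ERK-activated kinase RPS6KA1 went from 56.8 to 64.8 and from 57.5 to 66.7 CPM in 22RV1 and from 64.8 to 57.3 and from 70.4 to 49.4 CPM in DU145 (difference -0.62 ± 0.14, edgeR adjusted p = 0.00594). Only its fall in DU145 was called. MAPKAPK2 had 73.3, 94.1, 69.4 and 76.5 CPM in 22RV1 and 121, 119, 128 and 122 CPM in DU145 (difference -0.38 ± 0.12, edgeR adjusted p = 0.0467). No member kept this call under every alternative. Without the DU145 PAGE4 pair 0 members were called, without the DU145 vector pair 1, without the 22RV1 PAGE4 pair 8 and without the 22RV1 vector pair 7. The DESeq2 Wald test called 3. The split was 5 positive and 1 negative with DESeq2 size factors, and 1 positive and 3 negative with total counts. Shares of all genes called under these alternatives are not given here.

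The third comparison set PAGE4 cells against vector cells. Over both lines 0 of 35 members were called by edgeR, beside 0.174% of all genes (0.0981% higher, 0.0758% lower), which were 39 genes. At an unadjusted p under 0.05 there were 3 members and 1731 genes, and the DESeq2 Wald test also called 0 members. Without the filter on low counts 3 members were called, MAPK13, MAP2K1 and RPS6KA2, at unchanged log2 values (0.41, -0.45 and -0.57). The share of all genes called in that fit is not given here. By line, MAP2K1 and RPS6KA2 had log2 values of -0.87 and -1.82 in 22RV1 and -0.03 and 0.21 in DU145. MAPK13 had 0.66 in 22RV1 and 0.19 in DU145. In DU145 alone 0 members were called, beside 0.17% of all genes (0.112% higher, 0.058% lower), with 1 member at an unadjusted p under 0.05 and 0 by the Wald test. The median size of the change over members in DU145 was 0.07 on the log2 scale.

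In 22RV1, 4 members were called, 2 higher and 2 lower, beside 4.28% of all genes (2.15% higher, 2.14% lower). RPS6KA2 (chromosome 6, 166409364 to 166906451) fell 3.54-fold with PAGE4 (log2 -1.82 ± 0.18, edgeR adjusted p = 5.55e-06), from 323 to 66 reads with PBS and from 241 to 63 reads with H2O2. MAP2K1 (chromosome 15, 66386837 to 66491656) fell 1.83-fold (log2 -0.87 ± 0.10, edgeR adjusted p = 1.8e-05), from 87.7 to 42.7 CPM with PBS and from 79.1 to 48.1 CPM with H2O2. Both PAGE4 libraries lay below both vector libraries for each gene. The p38 genes MAPK13 (log2 0.66 ± 0.12, edgeR adjusted p = 0.00225) and MAPK11 (log2 0.50 ± 0.11, edgeR adjusted p = 0.0137) rose. MAPK11 overlapped between the constructs, with 67 CPM in the vector PBS library and 63.8 CPM in the PAGE4 H2O2 library.

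In DU145 the same genes had log2 values of 0.21 (RPS6KA2), -0.03 (MAP2K1), 0.19 (MAPK13) and -0.20 (MAPK11), none called. The difference between the lines was called for RPS6KA2 (log2 2.04 ± 0.22, edgeR adjusted p = 4.45e-05) and MAP2K1 (log2 0.84 ± 0.14, edgeR adjusted p = 0.00248), both positive, beside 1.84% of all genes (0.977% positive, 0.865% negative). These 2 calls held in all 8 alternatives. Without the 22RV1 PBS pair 8 members were called for PAGE4 in 22RV1 and 7 for the difference, and without the 22RV1 H2O2 pair the calls of MAPK11 and MAPK13 were lost, leaving 2. In these fits 22RV1 has 1 pair left and is assumed to vary like DU145. The shares of all genes called in them are not given, so these counts do not set the members apart. Each 22RV1 construct is a single transduced culture, so PAGE4 and differences between the cultures that arose otherwise cannot be told apart.

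**Figure D5:**
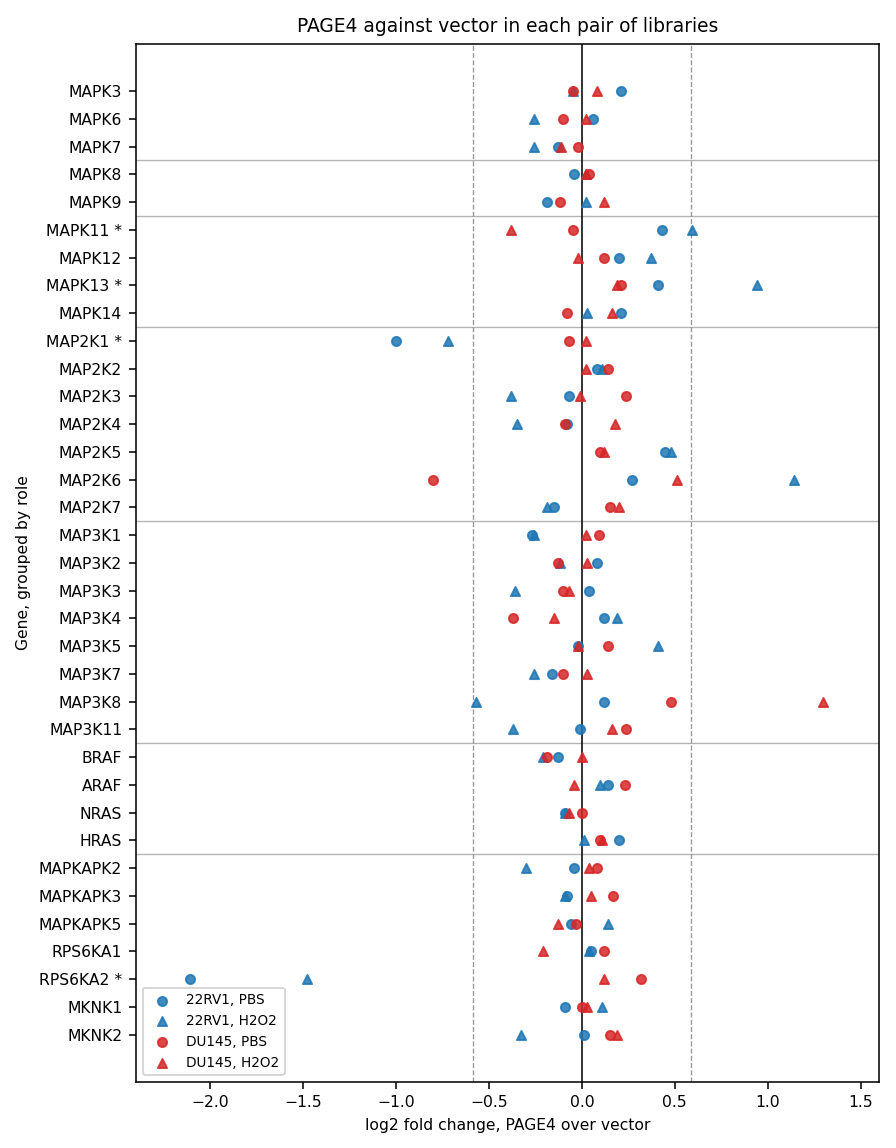
Log2 fold change of PAGE4 over vector, from normalized counts with a pseudocount of 0.5, in each of the 4 pairs of libraries (colour for line, shape for treatment) for 35 genes, with dashed lines at 1.5-fold and an asterisk where the edgeR adjusted p within 22RV1 was under 0.05. RPS6KA2 and MAP2K1 lie left of the dashed line in both 22RV1 pairs. In both DU145 pairs MAP2K1 lies near 0 and RPS6KA2 lies right of 0, short of the dashed line.

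The study's own contrast was PAGE4 against vector under H2O2, called at a fold over 1.5. It has 1 library on each side and no test, and the intervals given (95%, exact) cover counting error only. In 22RV1, 6 members passed, 3 higher and 3 lower, beside 23.2% of genes (11.1% higher, 12.1% lower). Higher were MAPK13 (log2 0.94), MAP2K6 (1.14, 35 reads in vector and 57 in PAGE4 cells, interval 0.52 to 1.80) and MAPK11 (0.59), which lay at the limit with a fold of 1.5. Lower were RPS6KA2 (-1.48), MAP2K1 (-0.72) and MAPK10, with 8 and 0 reads, at least 1.95-fold lower. Under PBS 3 members passed, 1 higher and 2 lower, beside 19.7% (8.35% higher, 11.3% lower). They were MAPK10 (10 and 29 reads), RPS6KA2 (-2.11) and MAP2K1, with 3847 and 1701 reads. MAPK10 had a mean normalized count of 10.7 in 22RV1. It passed the minimum of 10 only through the 29 reads of the PAGE4 PBS library, so its passes rest on that library.

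In DU145 under H2O2 the member that passed was MAP3K8 (TPL2), beside 15.2% of genes (7% higher, 8.2% lower), with 25 reads in vector and 62 in PAGE4 cells (log2 1.30, interval 0.62 to 2.05). With PBS it was MAP2K6, beside 15.3% (7.54% higher, 7.76% lower), with 154 reads in vector and 87 in PAGE4 cells (log2 -0.80). MAP3K8 and MAPK10 are named here after their values were seen. No member passed under H2O2 in both lines.

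Whether PAGE4 altered the H2O2 response was tested as an interaction over both lines. Of 35 members 0 were called by edgeR, beside 0% of all genes, and at an unadjusted p under 0.05 there were 0 members and 59 genes. The DESeq2 Wald test called 0 members. MAP2K6 had the lowest p among the members, with its fall under H2O2 smaller in PAGE4 cells (difference 1.10 ± 0.55, edgeR adjusted p = 1). In 22RV1 its log2 change was -2.05 with vector and -1.18 with PAGE4, and in DU145 it was -2.67 and -1.36. The 4 treated libraries held 21 to 57 MAP2K6 reads.

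The kinases whose proteins the study had followed by blot gave no call for PAGE4. MAPK3 (0.04 ± 0.08), MAPK8 (0.00 ± 0.07), MAPK9 (-0.06 ± 0.08) and MAP2K4 (-0.10 ± 0.09 on the log2 scale) had edgeR adjusted p of 0.955, 0.999, 0.935 and 0.874 over both lines.

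Other genes of the pathways were described from 5 lists of 70 symbols, 68 of which were in the tables under those names. Between the lines 33 were called higher and 16 lower in DU145, beside 28.5% and 31.9% of all genes. Of the 20 RAS regulators and adaptors, 13 were higher and 0 lower. The 2 highest of the 68 were GSTP1 (log2 9.89), at 0.151 to 0.208 CPM in 22RV1 and 164 to 197 CPM in DU145, and the scaffold KSR1 (4.77). The 2 lowest were the JNK scaffold MAPK8IP2 (-4.35) and the atypical MAPK4 (-4.27).

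With H2O2 8 of the 68 rose and 9 fell over both lines, beside 8.89% and 11.2% of all genes, to which these counts lie close. KSR2, a scaffold of the ERK cascade, fell by 1.83 on the log2 scale (edgeR adjusted p = 0.00207), from 5.88 to 2.13 and from 5.83 to 1.87 CPM in 22RV1 and from 14.6 to 2.84 and from 14.5 to 3.98 CPM in DU145. MAP3K6, a relative of MAP3K5, fell by 0.84. PEA15, which binds ERK kinases, rose by 1.06 and the adaptor TRAF6 by 0.72 on the log2 scale. With PAGE4 3 of the 68 were called lower in 22RV1, beside 2.14% of all genes. They were MRAS (-1.09), PEA15 (-0.40) and thioredoxin, TXN (-0.31), which binds MAP3K5.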

How the data were processed

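RNA-seq was available for 8 libraries of 22RV1 and DU145 cells, 1 for each combination of line, construct (vector or PAGE4) and treatment (PBS or H2O2). The submitters' processing notes name GRCh38, HISAT2 2.1.0 for mapping and featureCounts 1.6.0 for counting. What the authors deposited is a table of unnormalized whole-number counts for each line. The gene annotation and strand setting were not given in the sources used here. A spreadsheet had changed 26 symbols to dates, none of them a gene described here.

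Counts were fitted over all genes with edgeR 4.0.16 (R 4.3.3), with TMM normalization, edgeR's filter on low counts, the 4 matched pairs as blocks and the quasi-likelihood test. Single pairs were compared with DESeq2 1.42.0 size factors within a line, a pseudocount of 0.5, a mean normalized count of at least 10 and a fold over 1.5. Total counts of 25482984 to 43310401 limit precision for genes of few reads, and intervals cover counting error only. The coordinates and transcript lengths come from GENCODE release 44 and the promoters from RefSeq. Pseudogene copies found by symbol (the gene name followed by P and a number) had at most 0.176 CPM. Copies under other names were not searched for, and sequences were not compared.

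The edgeR test was checked on simulated data. There each gene had the same mean in all libraries of a line, apart from 200 changed genes. Differences between cultures or constructs were not simulated, so recovery in the real data may differ. For H2O2 over both lines 118 of 200 genes given a 2-fold change were called, with 8 false calls in a set of 21529. At 1.5-fold 88 of 200 were called, with 3 false calls among 21573 genes. For the H2O2 difference between lines it called 87 of 200 at 2-fold, with 11 false calls among 21530 genes, and 17 of 200 at 1.5-fold, with 1 among 21543.

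The gene members and lists were chosen with earlier results of these data known. Values in all 8 libraries are given for members past an adjusted p of 0.05, up to the 8 largest changes in a test, for members over 1.5-fold between PAGE4 and vector with H2O2 and a mean of at least 50, and for MAP2K4, MAPK8, MAPK9 and MAPK3. Of the other pathway genes, up to the 2 highest and 2 lowest called in a test are named. The alternatives were DESeq2 size factors, total counts, no filter, the DESeq2 Wald test, additive terms in place of pairs, each pair left out, and for single pairs TMM, total counts, another pseudocount, minimum or fold. 1 further marker gene of the lines is not reported here.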

Additional observations from a re-analysis of the deposited data

Results flagged for a closer look

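The tests of the difference between DU145 and 22RV1 singled out 7 results. For the H2O2 change, in DU145 minus 22RV1 on the log2 scale, they were MAP2K1 (0.42), MAP3K2 (0.47), MAP3K4 (0.55), MAPKAPK2 (-0.38) and RPS6KA1 (-0.62), each past an edgeR adjusted p of 0.05. Without the DU145 PAGE4 pair 0 members were called, and the values were then 0.38, 0.39, 0.45, -0.35 and -0.45 in the same order. For the PAGE4 change, in the same direction of subtraction, they were MAP2K1 (0.84) and RPS6KA2 (2.04), which held in all 8 alternatives. Groups of 1 library a condition were too small for a check of single outlying libraries.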

How the results depend on the processing

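No member called by edgeR changed the sign of its log2 value under an alternative. The split of the calls did turn with total counts. For the line it went from 14 higher and 11 lower to 8 higher and 11 lower. For the H2O2 difference it went from 3 positive and 2 negative to 1 positive and 3 negative. Leaving out 1 pair at a time gave 16 to 20 called members for the line (16 without PAGE4 H2O2 and 16 without vector PBS), 7 to 10 for H2O2 over both lines, 10 to 14 for H2O2 in 22RV1 (10 without 22RV1 vector, of which 9 are among the 35 members tested with all libraries and the other is MAPK10), 13 to 25 for H2O2 in DU145 (13 without DU145 PAGE4), 0 to 8 for the H2O2 difference (0 without DU145 PAGE4, 1 without DU145 vector, 8 without 22RV1 PAGE4), 2 to 8 for PAGE4 in 22RV1 (2 without its H2O2 pair, 8 without its PBS pair) and 2 to 7 for the PAGE4 difference (7 without 22RV1 PBS). Leaving out a pair also leaves fewer libraries, and a line with 1 pair left is assumed to vary like the other line. The DESeq2 Wald test called 3 members for the H2O2 difference, and no filter gave 3 for PAGE4 over both lines. For single pairs, a fold over 2 left 3 members for PAGE4 with H2O2 in 22RV1, 0 for PAGE4 with PBS in DU145, and for H2O2 against PBS 4 in 22RV1 vector, 2 in 22RV1 PAGE4, 2 in DU145 vector and 1 in DU145 PAGE4 cells. With no minimum 2 members passed for PAGE4 in DU145 with H2O2 and 2 with PBS, and with a minimum mean of 50 the former was 0. Why the size of these counts moved was not tested. The shares of all genes under the same alternatives are not given, so these counts do not set the members apart. No paired analysis was possible beyond the matched pairs because each condition has 1 library and the labels give no replicate numbers.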
